A study of Homo sapiens with 9 samples.

Results

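The kallikrein genes lie in 1 cluster on human chromosome 19 and encode secreted serine proteases. The account covers 10 genes of that cluster, chosen by gene name in the deposited expression table: KLK1, KLK2, KLK3, KLK4, KLK5, KLK10, KLK11, KLK12, KLK13 and KLK15. They are 10 of 60612 genes in the table, and 4 of them (KLK2, KLK3, KLK4 and KLK15) were among the 12830 genes with enough signal to be tested, which meant at least 1 FPKM (fragments scaled to transcript length and library depth) in at least 3 libraries. KLK15 passed that limit in the 3 control libraries and in only 2 of the 6 knockdown libraries.

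RNA sequencing was done on VCaP, an established cell line from a human prostate cancer, which carries a fusion of TMPRSS2 with ERG. The question was how the transcriptome changes when KMT2C, which encodes a histone methyltransferase that acts at enhancers, is lowered. There were 9 libraries in 3 groups of 3: cells transfected with KMT2C siRNA#1, cells transfected with KMT2C siRNA#2, and cells transfected with Control siRNA, each for 4 days. The labels give both KMT2C groups as deficient for the gene and the control group as normal. All groups were grown in DMEM with serum in 6-well plates, and the labels name no added androgen or drug. The labels do not say whether the 3 libraries of a group came from separate cultures, so p-values measure the spread between these libraries, which may be technical.

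Kallikreins are made as inactive precursors, and several of them activate each other outside the cell. In the prostate, KLK3 (prostate-specific antigen, PSA) and KLK2 are made by luminal cells and secreted into seminal fluid, where KLK3 cleaves the semenogelins of the semen clot. Their genes are classically induced by androgen, through response elements of paired half-sites in their promoters and in enhancers farther away.

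KLK3 and KLK2 lie next to each other on the plus strand, and the 250 bases before the RefSeq start of each gene (GRCh38.p14) are shown because these genes moved together. KLK3 is at chr19:50854665-50854914 and KLK2 at chr19:50873189-50873438. Capitals mark the 15 bases that best matched the palindrome of the androgen response element, namely the half-site AGAACA, then 3 free bases, then the reverse complement of the half-site.
KLK3: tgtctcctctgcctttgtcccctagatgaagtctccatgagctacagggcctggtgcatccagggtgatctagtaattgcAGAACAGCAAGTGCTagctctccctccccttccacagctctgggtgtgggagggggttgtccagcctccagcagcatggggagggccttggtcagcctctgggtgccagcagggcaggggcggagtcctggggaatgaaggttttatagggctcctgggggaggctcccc
KLK2: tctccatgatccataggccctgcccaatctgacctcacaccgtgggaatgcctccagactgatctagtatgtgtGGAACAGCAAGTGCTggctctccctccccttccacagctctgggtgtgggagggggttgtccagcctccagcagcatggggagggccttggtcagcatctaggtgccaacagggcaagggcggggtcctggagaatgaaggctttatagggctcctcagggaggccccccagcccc
Of the 12 fixed letters of that palindrome, KLK3 matched 10, at positions -170 to -156 from its start, and KLK2 matched 9, at positions -176 to -162. Counting from 1 at the 5′ end of the 15 bases, KLK3 differed from the palindrome by T10A and T13G. KLK2 had the same substitutions and A1G, which was its single difference from the KLK3 stretch. Among 35116 RefSeq promoter windows of 300 bases, searched on both strands, 1.41% held a match of at least 10 letters and 10.8% one of at least 9. RefSeq windows were at hand for 9 of the 10 kallikreins, 14 windows in all, and the best matches of the other 7 genes had 6 to 8 letters. A match of at least 8 letters was present in 47.0% of all windows. These matches describe letters only.

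The printed stretches of KLK3 and KLK2 were alike throughout: 205 of 259 columns of their alignment were identical (79.2%). Both also held TATAAA, read on the opposite strand. Counted on either strand, these letters were in 1 of 2 windows of KLK15 and in 11.5% of all promoter windows. The half-site itself, which forms the first letters of the palindrome, was found exactly in KLK3 but in no other member window, against 14.8% of all windows. None of the 14 member windows held the forkhead letters TGTTTAC, which 3.42% of all windows held. None held the letters AGATAA, which GATA factors bind and which were in 10.3% of all windows. Nor did any hold CCGGAAGT, an ETS factor motif that was in 4.14% of all windows.

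The target gene was lower in every knockdown library. KMT2C was at 1.54, 1.80 and 2.28 FPKM with siRNA#1, at 1.72, 1.64 and 1.73 FPKM with siRNA#2, and at 13.7, 12.1 and 12.9 FPKM in control libraries. For siRNA#1 this was a log2 fold change of -2.81 ± 0.13 (SE; adjusted p = 4.56e-06, edgeR quasi-likelihood test), and for siRNA#2 one of -2.98 ± 0.13 (adjusted p = 8.76e-07). Between the siRNAs KMT2C differed by 0.17 on the log2 scale (adjusted p = 0.309). Libraries held 58462215 to 70726213 expected counts, taken as about 4 counts to a fragment, and 24406 to 25318 genes above 0. All 5 luminal prostate markers used had a mean of at least 1 FPKM in each group. Their summed level was 365 to 395 FPKM with siRNA#1, 343 to 357 with siRNA#2 and 522 to 561 in control libraries. With siRNA#1, 3 of the 5 were lower at an adjusted p under 0.05 (edgeR), as were 20.5% of all tested genes. KRT18 (log2 fold change 0.03) and HOXB13 (-0.19) did not pass with siRNA#1. With siRNA#2 all 5 were lower, as were 24.9% of all tested genes. The share of mitochondrial counts was 8.25 to 9.61% with siRNA#1, 11.95 to 12.2% with siRNA#2 and 10.2 to 11.1% in control libraries. In bulk RNA, fewer cells of a type and less RNA per cell cannot be told apart. The series' own text calls the RNA retinal, and of 5 retina markers CRX and RCVRN were at 0 in all 9 libraries. PDE6B, another photoreceptor gene, was at 0.654 to 0.860 FPKM with siRNA#1, 0.580 to 0.708 with siRNA#2 and 0.0684 to 0.114 in control libraries, and RLBP1 and OPN1SW were at most 0.0294 and 0.118 FPKM in any library. The part of PDE6B in the results below was not tested.

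KLK2 and KLK3 fell with each of the siRNAs, and so did KLK15, with siRNA#1 only near the threshold, whereas KLK4 rose with siRNA#2 and overlapped with the control libraries with siRNA#1. KLK3 had the largest fold change of the family, KLK2 lost the most in FPKM, and the fall was deeper with siRNA#2 for all 3 genes. With siRNA#1, 3 members were called lower and 0 higher at an adjusted p under 0.05, where 41.7% of all tested genes were called, 20.5% lower and 21.2% higher. With siRNA#2, 3 members were called lower and 1 higher, where 49.3% of all tested genes were called, 24.9% lower and 24.4% higher. KLK2, KLK3 and KLK15 were called lower with both siRNAs, as were 12.6% of all tested genes; 0 members were called higher with both, against 13.2% of all tested genes. The call of KLK15 with siRNA#1 was lost in 12 of 21 alternative fits, which left 2 members called lower with siRNA#1 and with both. KLK15 would not have passed the limit for testing without the control libraries, the group in which it is high. These 4 genes are few, and both comparisons use the same control libraries.

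**Figure D1:**
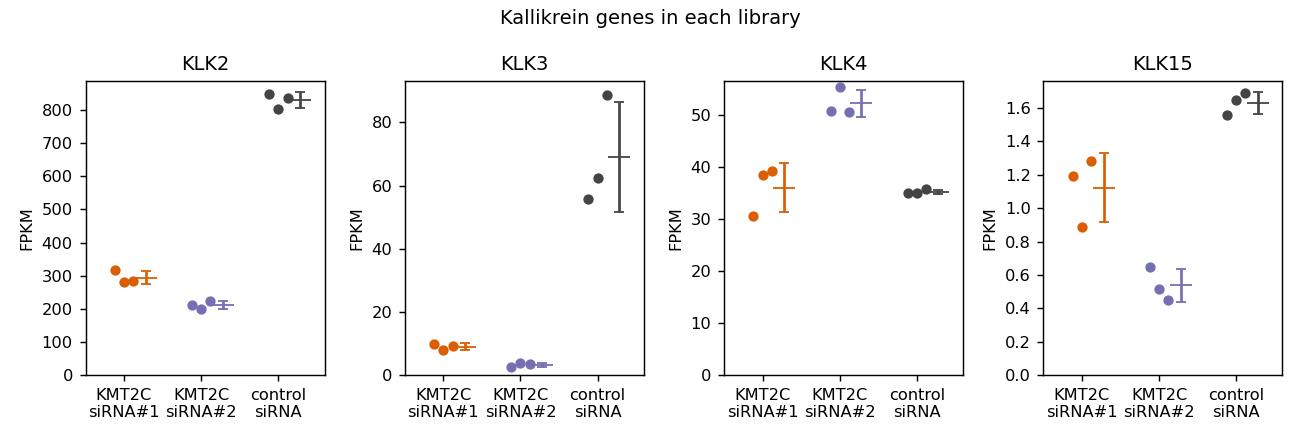
FPKM of KLK2, KLK3, KLK4 and KLK15 in each library of the KMT2C siRNA#1, KMT2C siRNA#2 and control siRNA groups (points), with the mean and SD of 3 libraries beside them and every axis starting at 0. KLK2, KLK3 and KLK15 show 3 separate levels with control highest and siRNA#2 lowest, while KLK4 is highest with siRNA#2.

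KLK3 (ENSG00000142515, chr19:50854915-50860764, plus strand) encodes PSA, the protease measured in blood in prostate cancer care. It was at 9.94, 7.97 and 9.40 FPKM with siRNA#1, at 2.75, 3.89 and 3.53 FPKM with siRNA#2, and at 55.8, 62.2 and 88.7 FPKM in control libraries. The 3 groups did not overlap, and the control libraries were the most uneven, with replicate 3 above the other two. KLK3 was 7.70-fold lower with siRNA#1 than in control libraries, a log2 fold change of -2.94 ± 0.21 (adjusted p = 2.27e-05, edgeR). With siRNA#2 it was 21.1-fold lower, at -4.40 ± 0.22 (adjusted p = 1.57e-06). With siRNA#1, 45 of the 12830 tested genes had a log2 fold change as low as that of KLK3, itself included, and with siRNA#2 the number was 43. In rank of mean FPKM among all genes of the table, KLK3 stood at 3995 with siRNA#1, 7964 with siRNA#2 and 426 in control cells.

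KLK2 (ENSG00000167751, chr19:50861568-50880567, plus strand) encodes a trypsin-like protease that can activate the KLK3 precursor. It was at 317, 281 and 285 FPKM with siRNA#1, at 211, 201 and 224 FPKM with siRNA#2, and at 848, 800.4 and 836 FPKM in control libraries. No knockdown library came near a control library, and the libraries of siRNA#1 were all above those of siRNA#2. KLK2 was 2.86-fold lower with siRNA#1 than in control libraries, at -1.52 ± 0.07 on the log2 scale (adjusted p = 4.56e-06, edgeR). With siRNA#2 it was 4.06-fold lower, at -2.02 ± 0.07 (adjusted p = 3.57e-07). KLK2 kept a high level all the same: its mean FPKM ranked 98 with siRNA#1, 125 with siRNA#2 and 34 in control cells. The start of KLK2 in the table lies upstream of its RefSeq start, which falls inside the gene's span in the table.

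KLK15 (ENSG00000174562, chr19:50825289-50837213, minus strand) encodes another protease that can activate the KLK3 precursor. It was at 1.19, 0.889 and 1.28 FPKM with siRNA#1, at 0.646, 0.518 and 0.452 FPKM with siRNA#2, and at 1.56, 1.65 and 1.69 FPKM in control libraries. These are low levels, from 224, 163 and 222 expected counts with siRNA#1, 115, 97 and 84 with siRNA#2, and 250, 302 and 326 in control libraries. The groups did not overlap. With siRNA#2 the log2 fold change was -1.63 ± 0.20 (adjusted p = 1.96e-04, edgeR), or 3.09-fold lower. With siRNA#1 it was -0.56 ± 0.19 (adjusted p = 0.0445), or 1.48-fold lower, and this call was close to the threshold. It was lost without control replicate 1, 2 or 3 (adjusted p = 0.0743, 0.0977 and 0.106), without siRNA#1 replicate 1 or 2 (0.0653, 0.123), without siRNA#2 replicate 2 (0.0620), and with no filter on low values (0.121). The direction stayed negative in each of these fits.

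KLK4 (ENSG00000167749, chr19:50906352-50910738, minus strand) encodes a protease of the prostate that also breaks down enamel proteins in the developing tooth. It was at 30.7, 38.5 and 39.2 FPKM with siRNA#1, at 50.8, 55.4 and 50.8 FPKM with siRNA#2, and at 35.0, 35.0 and 35.8 FPKM in control libraries. The siRNA#2 libraries were all above the control libraries, while those of siRNA#1 lay on both sides of them. The log2 fold change with siRNA#2 was 0.51 ± 0.09, or 1.43-fold higher (adjusted p = 0.00154, edgeR). With siRNA#1 it was 0.01 ± 0.09 (adjusted p = 0.949), and its sign turned negative with RLE size factors and in DESeq2. KLK4 ranked 929 in mean FPKM with siRNA#1, 586 with siRNA#2 and 955 in control cells.

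The average of both siRNAs against control gave 3 members lower and 1 higher, where 47.5% of all tested genes were called, 24.5% lower and 23.0% higher. In that average the log2 fold change was -3.67 ± 0.17 for KLK3 (adjusted p = 1.05e-06, edgeR) and -1.77 ± 0.06 for KLK2 (adjusted p = 2.49e-07). KLK15, which would not have passed the limit for testing without the control libraries, was at -1.10 ± 0.16 (adjusted p = 6.50e-04, edgeR). KLK4 was at 0.26 ± 0.08 (adjusted p = 0.0234), a call that came from siRNA#2 alone and was lost without control replicate 1, 2 or 3 (adjusted p = 0.0798, 0.0660 and 0.0509). Over the 6 knockdown and 3 control libraries, a 2-sided exact permutation test on log2 CPM, which scales counts to library depth, gave p = 0.0238 for KLK2, KLK3, KLK15 and KMT2C, the smallest p that the 84 splits allow, and p = 0.238 for KLK4. Against a single siRNA, 3 libraries against 3 cannot give an exact permutation p below 0.1. That value was reached by KLK2, KLK3 and KLK15 with each siRNA and by KLK4 with siRNA#2. The permutation test was not run on the other tested genes. The share of them that would reach these smallest p-values is therefore not known.

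**Figure D2:**
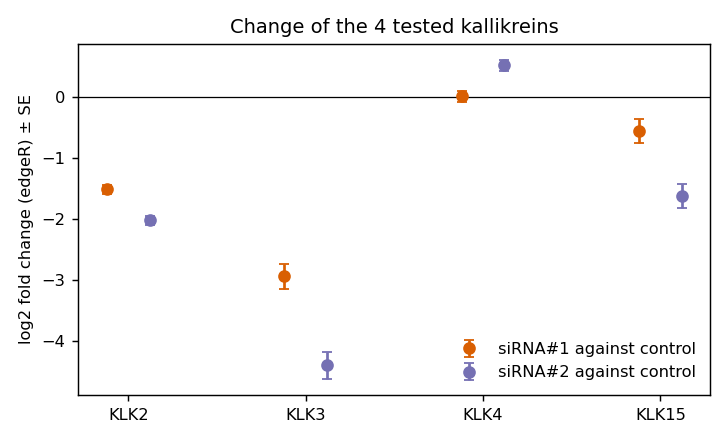
Log2 fold change with its SE from the edgeR fit for the 4 tested kallikreins, siRNA#1 against control (orange) and siRNA#2 against control (violet), on a linear axis with a line at 0. KLK3 is lowest with either siRNA, at -2.94 with siRNA#1 and -4.40 with siRNA#2, and KLK4 is the one gene with a point above 0 beyond its SE, at 0.51 with siRNA#2.

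The siRNAs differed from each other at all 4 genes. Set directly against siRNA#2, siRNA#1 gave 3 members called higher and 1 lower, where 39.5% of all tested genes were called, 20.6% higher and 18.9% lower. KLK3 was 2.74-fold higher with siRNA#1 than with siRNA#2, a log2 difference of 1.45 ± 0.20 (adjusted p = 5.98e-04, edgeR). KLK15 differed by 1.07 ± 0.20 (adjusted p = 0.00292) and KLK2 by 0.51 ± 0.07 (adjusted p = 6.98e-04), both higher with siRNA#1. KLK4 differed by -0.50 ± 0.09 (adjusted p = 0.0024), lower with siRNA#1. For KMT2C itself the difference did not pass the test. Other cell type markers also differed between the siRNAs. The summed level of 4 basal markers was 6.29 to 7.86 FPKM with siRNA#1, 0.847 to 0.953 with siRNA#2 and 2.38 to 2.65 in control libraries. That sum was nearly all KRT14, while KRT5 and TP63 were at 0 in all siRNA#2 libraries and KRT5 in all control libraries. The summed level of 4 neuroendocrine markers was 3.21 to 4.13 FPKM with siRNA#1, 6.22 to 6.78 with siRNA#2 and 4.53 to 5.10 in control libraries, with none of the 4 at 0. The part of these markers, of the luminal markers and of the mitochondrial share given above in the kallikrein differences was not tested.

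The other 6 members were at or near 0, and no fold is given for them. KLK5 and KLK13, proteases of the skin and other stratified epithelia, and KLK12 had 0 counts in all 9 libraries. KLK1, tissue kallikrein, which frees kinins from kininogen, had 8 counts in siRNA#2 replicate 2 and 0 elsewhere. KLK10 had 8 counts in siRNA#1 replicate 2 and 8 in replicate 3, and KLK11 had 4 counts in siRNA#1 replicate 3. A count of 0 allows up to 3 fragments, or 12 counts at this scale, which is 0.170 to 0.205 CPM in these libraries and covers counting error only. None of the 6 exceeded that limit in any library, so no difference was detectable at this depth. The scale of about 4 counts to a fragment is an assumption. If 1 count were 1 fragment, KLK1, KLK10 and KLK11 would exceed the limit of 3 in the libraries named.

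Further kallikrein genes of the table also lay under the limit for testing. The pseudogene KLKP1, between KLK2 and KLK4, was at 0.563, 0.948 and 0.639 FPKM with siRNA#1, at 1.08, 0.942 and 0.915 FPKM with siRNA#2, and at 0.677, 0.514 and 0.602 FPKM in control libraries. Its siRNA#2 libraries were all above the control libraries, as for KLK4, and those of siRNA#1 overlapped with both. KLK14 had 28 to 35 expected counts with siRNA#1, 18 to 29 with siRNA#2 and 16 to 39 in control libraries, overlapping throughout. KLK6 had at most 12 counts and KLK7 at most 3 in any library. KLK8 and KLK9 had 0 in all.

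The make-up of the kallikrein transcripts differed between the groups. The family held 0.235 ± 0.0159% of all expected counts with siRNA#1, 0.173 ± 0.00813% with siRNA#2 and 0.669 ± 0.0227% in control libraries (SD, n = 3 each). Summed over the members, the level was 340.4 ± 16.2 FPKM with siRNA#1, 268 ± 9.23 FPKM with siRNA#2 and 934 ± 32.1 FPKM in control libraries. KLK2 made up most of that sum in every library, at 86.3 ± 1.76% with siRNA#1, 79.0 ± 1.71% with siRNA#2 and 88.7 ± 1.67% in control libraries. The order below it changed. In control libraries KLK3 came second with 7.36 ± 1.68% and KLK4 came next with 3.78 ± 0.10%. In knockdown libraries KLK4 came second, with 10.7 ± 1.83% for siRNA#1 and 19.6 ± 1.53% for siRNA#2, and KLK3 came next, with 2.67 ± 0.209% for siRNA#1 and 1.27 ± 0.225% for siRNA#2. KLK15 was last in each group, with 0.329 ± 0.0561% for siRNA#1, 0.202 ± 0.0409% for siRNA#2 and 0.175 ± 0.00876% in control libraries. Within each group the FPKM ranges of these 4 genes did not overlap, so the order held in every library.

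The ratio of KLK2 to KLK3, in FPKM, shows that these neighbours fell by unequal amounts. It was 31.9, 35.2 and 30.3 with siRNA#1, 76.5, 51.7 and 63.4 with siRNA#2, and 15.2, 12.9 and 9.43 in control libraries. The groups did not overlap. The ratio of KLK3 to KLK4 was 0.257 ± 0.0604 with siRNA#1, 0.0646 ± 0.00902 with siRNA#2 and 1.95 ± 0.467 in control libraries, so that KLK3 exceeded KLK4 in control cells and was below it in knockdown cells.

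**Figure D3:**
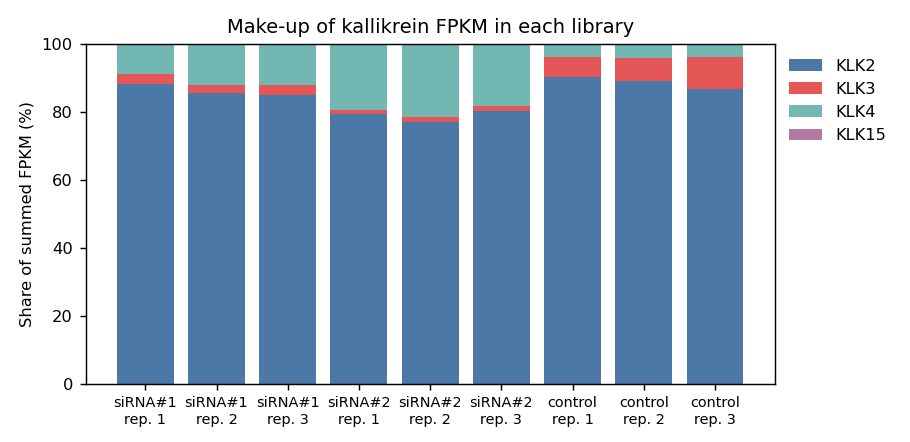
Share of the summed kallikrein FPKM (percent, axis from 0 to 100) that each tested member takes in each of the 9 libraries, siRNA#1, siRNA#2 and control from left to right. KLK2 takes most of every bar, KLK4 outweighs KLK3 in the 6 knockdown libraries and KLK3 outweighs KLK4 in the 3 control libraries; KLK15, under 1%, is too thin to see.

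Transcripts of these genes shared few exact stretches of 50 bases. Only exact matches were counted, so mixing of reads that align with mismatches was not tested. Of the 50-base stretches of KLK3 transcripts in GENCODE 29, 11 of 5119 also occur in KLK2 transcripts (0.215%), and no stretch of 100 bases does. Of the 50-base stretches of KLK2 transcripts, 31 of 6910 occur in some other gene (0.449%). KLK4 and KLK15 shared no 50-base stretch with another gene. No exon of KLK2, KLK3, KLK4 or KLK15 overlaps an exon of another annotated gene.

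The 10 members span 246.0 kb, and the genes around them were taken up to 500 kb on either side. That window held 87 genes outside the family, of which 14 were tested and none of the 9 inside the cluster. With siRNA#1, 4 of the 14 were called higher and 7 lower, where 21.2% of all tested genes were called higher and 20.5% lower, and the median log2 fold change was -0.08 against 0.01 for all. With siRNA#2, 4 were called higher and 7 lower, where 24.4% of all were called higher and 24.9% lower, and the median was -0.28 against 0.02. The window's counts include 3 genes that passed the limit for testing through 1 group alone, and 4 of the genes share 1 locus, C19orf48. The plus-strand gene AC011523, whose span overlaps that of KLK15 and ends before KLK3, was not tested. It was at 0.225, 0 and 0.928 FPKM with siRNA#1, 0.892, 0.456 and 0.676 with siRNA#2 and 1.21, 0.827 and 1.28 in control libraries.

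The closest tested neighbours of the cluster lay on the KLK1 side, with lower values for most of them. ACP4, an acid phosphatase gene whose start lies at -64.5 kb from that of KLK3, was at 0.785, 0.796 and 0.707 FPKM with siRNA#1, at 0.551, 0.523 and 0.728 FPKM with siRNA#2, and at 4.65, 4.07 and 4.15 FPKM in control libraries. ACP4 passed the limit for testing through the 3 control libraries alone, the group in which it is high. The knockdown libraries of ACP4 were all under the control libraries, with log2 fold changes of -2.51 ± 0.18 for siRNA#1 (adjusted p = 2.17e-05, edgeR) and -2.88 ± 0.18 for siRNA#2 (adjusted p = 4.79e-06). C19orf48 averaged 109 ± 29.1 FPKM with siRNA#1, 112 ± 9.16 with siRNA#2 and 276 ± 5.53 in control libraries (SD, n = 3 each). That made log2 fold changes of -1.37 (adjusted p = 4.70e-04) for siRNA#1 and -1.36 (adjusted p = 2.90e-04) for siRNA#2. The small nucleolar RNA genes SNORD88A, SNORD88B and SNORD88C lie inside the span of C19orf48, and whether the counting kept their reads apart from it was not tested. All 3 fell with siRNA#1 (-1.22, -1.28 and -1.17). SNORD88B and SNORD88C also fell with siRNA#2 (-1.34, -1.31), where SNORD88A was at -0.35 (adjusted p = 0.347).

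Farther out the directions were mixed. VSIG10L, which passed the limit for testing through the 3 control libraries alone, was at -1.85 with siRNA#1 and -3.55 with siRNA#2. NR1H2, which encodes the nuclear receptor LXR beta, fell with both (-0.29 with siRNA#1 and -1.10 with siRNA#2). FAM71E1 (1.08 with siRNA#1 and 0.96 with siRNA#2), JOSD2, a deubiquitinase gene (0.60 with siRNA#1 and 0.95 with siRNA#2), and ETFB, a subunit of the mitochondrial electron transfer flavoprotein (0.62 with siRNA#1 and 0.64 with siRNA#2), rose with both. FAM71E1 overlaps EMC10 on the opposite strand, and the sources used here do not say whether counting used strand. EMC10 was at 0.12 with siRNA#1 (adjusted p = 0.201) and fell with siRNA#2 (-0.20, adjusted p = 0.0429). CTU1 rose with siRNA#1 (0.48, adjusted p = 0.0377) and was at 0.35 with siRNA#2 (adjusted p = 0.0988). CLEC11A, which passed the limit through the siRNA#2 libraries alone, was at 0.36 with siRNA#1 (adjusted p = 0.279) and at 1.21 with siRNA#2. POLD1 was called with neither. Between KLK15 and KLK4, tested genes lay on both sides of 0 with siRNA#2, and no change ran across the whole window.

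**Figure D4:**
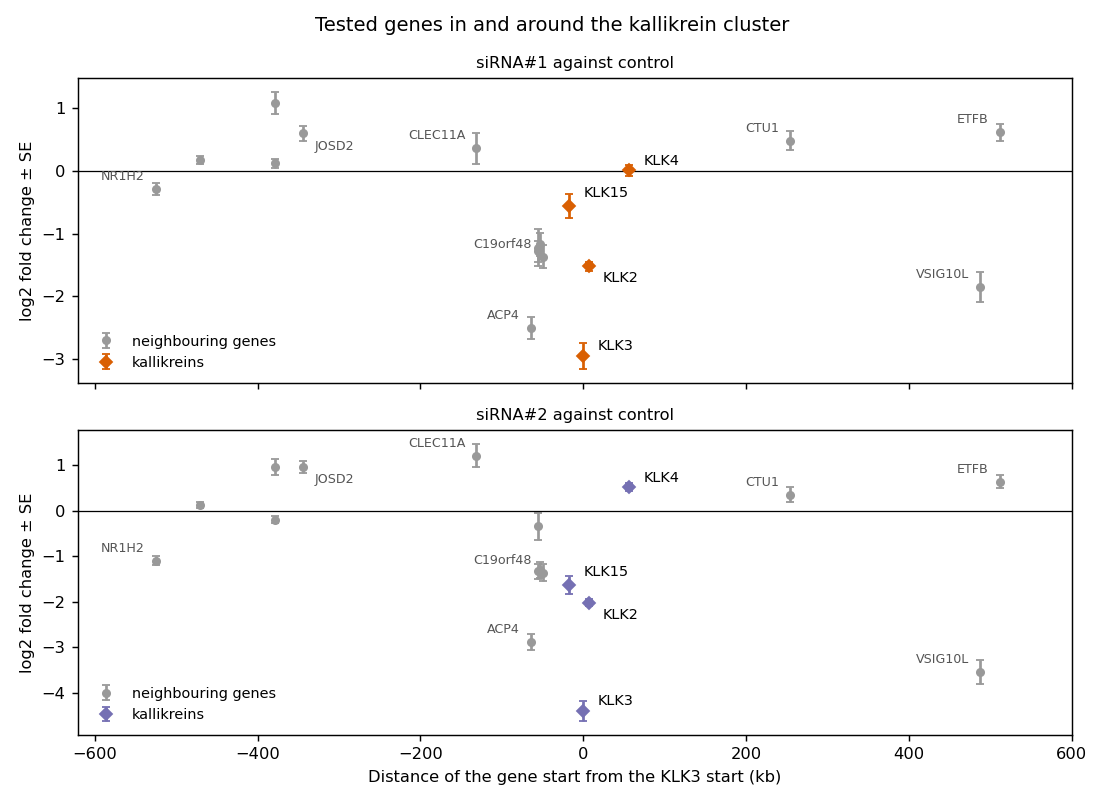
Log2 fold change with its SE (edgeR) of each tested gene within 500 kb of the kallikrein cluster, against the distance of its start from the start of KLK3 in kb, for siRNA#1 above and siRNA#2 below; diamonds are kallikreins and circles other genes. ACP4, C19orf48, KLK15, KLK2 and KLK3 lie below 0 in both panels, while JOSD2, CTU1 and ETFB lie above it, CTU1 past the threshold only with siRNA#1.

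Of 23 listed genes of factors known to act at KLK3 regulatory DNA, 22 were tested. With siRNA#1, 1 was called higher and 12 lower, with a median log2 fold change of -0.35, where 21.2% of all tested genes were called higher and 20.5% lower. With siRNA#2, 3 were called higher and 11 lower, with a median of -0.22, where 24.4% of all tested genes were called higher and 24.9% lower. The medians of all tested genes were 0.01 with siRNA#1 and 0.02 with siRNA#2. The list includes HOXB13 and FOXA1, which are also among the luminal markers above. Like the lists of substrates and inhibitors below, it was chosen with earlier results of these data known. Its counts therefore give no independent support. They include NR3C1, which passed the limit for testing through the siRNA#2 libraries alone.

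GATA2, a GATA factor gene of luminal cells, was at 80.3, 74.5 and 72.3 FPKM with siRNA#1, at 40.9, 41.2 and 42.9 FPKM with siRNA#2, and at 124, 126 and 144 FPKM in control libraries. Its groups were ordered as those of KLK3, with no overlap, at log2 fold changes of -0.82 for siRNA#1 (adjusted p = 1.07e-04, edgeR) and -1.71 for siRNA#2 (adjusted p = 1.15e-06). How many of all tested genes have that order was not counted, so it is not shown to be particular to GATA2.

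The other leading genes of the list differed in their patterns. ERG, the ETS factor gene of the VCaP fusion, fell with both siRNAs (-0.96 with siRNA#1 and -1.04 with siRNA#2), as did GRHL2, a grainyhead factor gene (-0.53 with siRNA#1 and -0.58 with siRNA#2). SPDEF, which encodes an ETS factor of secretory epithelium, rose with siRNA#1 (0.41) but fell with siRNA#2 (-2.25). HOXB13, a prostate homeobox gene, fell with siRNA#2 (-1.18) and was at -0.19 with siRNA#1 (adjusted p = 0.104). LEF1, a factor gene of the Wnt pathway, fell with siRNA#1 (-1.03) and was at 0.16 with siRNA#2 (adjusted p = 0.0598). FOXA1, which encodes a forkhead factor that opens chromatin, fell by 0.51 with siRNA#1 and by 0.16 with siRNA#2. NR3C1, the glucocorticoid receptor gene, passed the limit for testing through the siRNA#2 libraries alone. On the log2 scale it was at 1.38 for siRNA#2 and at 0.02 for siRNA#1 (adjusted p = 0.916), with a mean of 0.819 FPKM with siRNA#1, 2.14 with siRNA#2 and 0.793 in control libraries. No measurement here bears on binding of these factors.

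**Figure D5:**
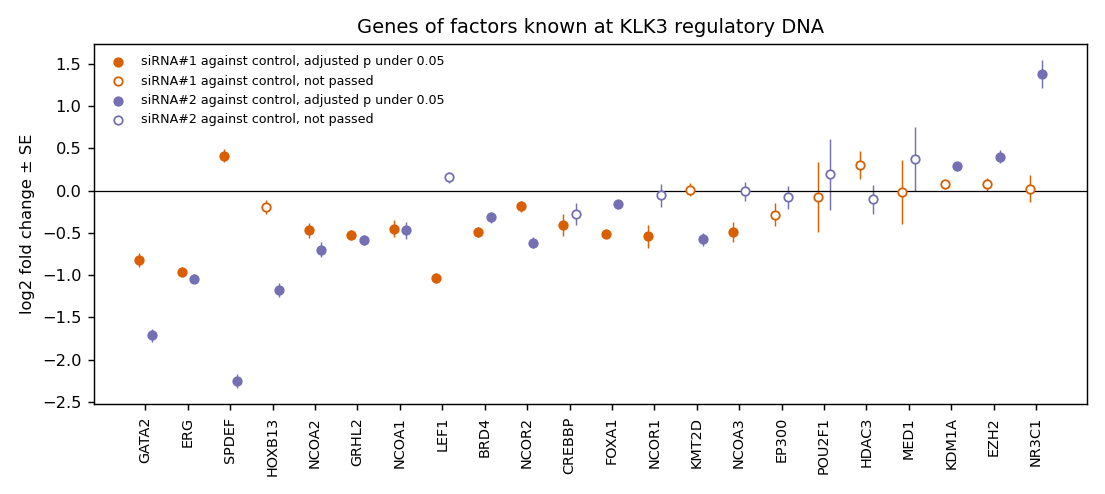
Log2 fold change with its SE (edgeR) of the 22 tested genes of factors known at KLK3 regulatory DNA, siRNA#1 against control (orange) and siRNA#2 against control (violet), ordered by their average; filled points have an adjusted p under 0.05. GATA2 and ERG are lowest in the average, and NR3C1, tested through its siRNA#2 level alone, stands at the right.

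Proteins that kallikreins act on, or that activate them, were covered by a list of 23 genes, 10 of them tested. With siRNA#1, 3 were called higher and 4 lower, with a median log2 fold change of -0.28, where 41.7% of all tested genes were called. With siRNA#2, 4 were called higher and 6 lower, with a median of -0.79, where 49.3% of all were called. These counts include SEMG2 and TGFB2, which passed the limit for testing only through the siRNA#1 and the siRNA#2 libraries, respectively. They also include IGFBP5, which passed through the siRNA#2 libraries and control replicate 3. Genes of seminal proteins, among them the semenogelins that KLK3 cleaves, were low. SEMG1 and MSMB, genes of major seminal proteins, stayed under 0.1 FPKM in the mean of each group, and SEMG2, which passed the limit for testing through the siRNA#1 libraries alone, averaged 1.51 FPKM with siRNA#1, 0.0927 with siRNA#2 and 0.254 in control libraries. Among membrane proteases that can activate other proteases, TMPRSS2 was at 19.5, 19.8 and 18.5 FPKM with siRNA#1, at 43.2, 43.3 and 42.5 FPKM with siRNA#2, and at 94.4, 96.7 and 98.1 FPKM in control libraries. Its groups did not overlap, and their order differed from that of KLK3, since siRNA#1 was lowest (log2 fold changes -2.35 with siRNA#1 and -1.22 with siRNA#2). ST14, which encodes matriptase, fell with both (-0.54 with siRNA#1 and -0.58 with siRNA#2). HPN, which encodes hepsin, fell with siRNA#2 (-0.996) and was at -0.03 with siRNA#1 (adjusted p = 0.847).

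F2R, which encodes the thrombin receptor PAR1, fell with both siRNAs (-2.45 with siRNA#1 and -1.90 with siRNA#2). F2RL1, which encodes PAR2, a receptor cut by several kallikreins, fell with siRNA#2 (-1.29) and was at -0.65 with siRNA#1 (adjusted p = 0.0776). HGF, a growth factor that needs proteolytic activation, was at 4.15, 4.19 and 5.07 FPKM with siRNA#1, at 7.77, 7.85 and 9.36 FPKM with siRNA#2, and at 1.49, 1.47 and 1.47 FPKM in control libraries. It rose without overlap with both (1.57 with siRNA#1 and 2.44 with siRNA#2), opposite to KLK3 and with the same siRNA showing the larger change. TGFB2, which passed the limit for testing through the siRNA#2 libraries alone, was at 0.95 with siRNA#1 and 4.48 with siRNA#2, at a mean of 0.335 FPKM with siRNA#1, 3.96 with siRNA#2 and 0.169 in control libraries. IGFBP3, which encodes an insulin-like growth factor carrier that PSA can cleave, rose with siRNA#2 (1.44) and was at 0.12 with siRNA#1 (adjusted p = 0.573). IGFBP5 went in opposite directions, at -1.54 with siRNA#1 (adjusted p = 0.0130, edgeR) and 2.68 with siRNA#2 (adjusted p = 5.69e-04).

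Of 15 genes of kallikrein inhibitors, 5 were tested. With siRNA#1, 2 were called higher and 1 lower, with a median log2 fold change of 0.28, where 41.7% of all tested genes were called. With siRNA#2, 2 were called higher and 2 lower, with a median of -0.17, where 49.3% of all were called. SERPINB6, an intracellular serpin gene, rose with both (0.75 with siRNA#1 and 0.51 with siRNA#2), while SPINT1, which encodes the matriptase inhibitor HAI-1, fell with both (-0.36 with siRNA#1 and -0.61 with siRNA#2). SPINK5, which encodes the skin kallikrein inhibitor LEKTI, rose with siRNA#2 (0.63) and was at 0.28 with siRNA#1 (adjusted p = 0.104). SPINK1 rose with siRNA#1 (0.73) and fell with siRNA#2 (-1.02). SPINT2 passed with neither. The main serpin partners of PSA and KLK2 in plasma and semen, SERPINA3 and SERPINA5, were low: SERPINA3 averaged 0.0775 FPKM with siRNA#1, 0.122 with siRNA#2 and 0.0798 in control libraries, and SERPINA5 was at 0 in all of them.

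Over the 9 libraries, KLK3 and KLK2 followed each other closely, with a Pearson correlation of 0.988 in log2 CPM. KLK15 correlated with KLK3 at 0.902 and KLK4 at -0.70. The 5 named protein-coding genes most like KLK3, among 10672 compared, were NRIP3 (0.995), HGD, GDPD1, LIX1 and TCF25. Of these, LIX1 was low in the knockdown groups, with a mean of 0.638 FPKM with siRNA#1, 0.274 with siRNA#2 and 4.24 in control libraries. Those most like KLK2 were SAR1B (0.997), TCF25, PIP4P1, S100A10 and TP53INP1, so TCF25 was in both groups of 5. NRIP3 also came near KLK3 in size, at 5.71 FPKM with siRNA#1, 2.71 with siRNA#2 and 44.9 in control libraries, with log2 fold changes of -3.001 for siRNA#1 and -4.11 for siRNA#2. These correlations are descriptions: the 9 points are 3 groups of libraries that share a treatment, so they are not independent.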

How the data were processed

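Total RNA from 9 VCaP libraries had been sequenced, and the authors deposited FPKM values and expected counts per gene in 1 table, per the file headers. The submitters' processing notes name Bowtie 0.12.2 and the builds hg38 and mm8 without a role; no source used here gives the counting tool, the annotation or the use of strand. Gene coordinates in the table overlapped GENCODE 29 on GRCh38 for 99.9% of the 58394 shared identifiers. Whole-number counts pile up at 4, 8 and 12, although counts of 1, 2 and 3 also occur. About 4 deposited counts were taken to stand for 1 fragment, which was not established. Deposited FPKM of 0.0001 stands for 0 counts and was set to 0.

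Expected counts were rounded and tested in R 4.3.3 with edgeR 4.0.16 (TMM scaling, quasi-likelihood F test, 2-sided) over all 9 libraries and 12830 genes with at least 1 FPKM in at least 3 libraries, with Benjamini-Hochberg adjustment over all of them and a threshold of 0.05. The procedure was tested on simulated data in which far fewer genes changed than were called here. That test does not cover changes of this extent. The total was 58462215 to 70726213 counts per library. Promoters came from RefSeq (GRCh38.p14). Alternatives were other scalings and filters, DESeq2 1.42.0, limma 3.58.1 on log2(FPKM + 1) and log2(FPKM + 0.1), counts divided by 4, a replicate block and each library left out. Members and lists were chosen with earlier results of these data known. The text names all members, KMT2C, the other kallikreins, up to 6 genes of each list with the smallest adjusted p in the average comparison, list members a sentence turns on (such as FOXA1, NR3C1, F2RL1, SEMG2 and SERPINA3), the tested neighbours within 500 kb and the 5 genes most like KLK3 and KLK2. A few genes of these lists are not reported here and were left out of the counts.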

Additional observations from a re-analysis of the deposited data

Results flagged for a closer look

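All 4 tested kallikreins stood out because the siRNAs against KMT2C differed from each other in a direct edgeR test, although KMT2C itself differed by 0.17 on the log2 scale (adjusted p = 0.309). As siRNA#1 minus siRNA#2, the log2 difference was 1.45 for KLK3 (9.10 ± 1.02 against 3.39 ± 0.579 FPKM), 1.07 for KLK15 (1.12 ± 0.206 against 0.539 ± 0.0985 FPKM), 0.51 for KLK2 (294 ± 19.9 against 212 ± 11.4 FPKM) and -0.50 for KLK4 (36.1 ± 4.74 against 52.3 ± 2.66 FPKM), each with SD and n = 3. A difference between the siRNAs was called for 39.5% of all tested genes.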

How the results depend on the processing

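KLK2 and KLK3 kept their direction and their call in all 21 alternatives of each single siRNA and all 20 of the average, with log2 fold changes of -1.59 to -1.47 and -2.07 to -1.92 for KLK2, and -3.09 to -2.71 and -4.54 to -3.98 for KLK3, with siRNA#1 and siRNA#2. KLK4 kept its call with siRNA#2, at 0.46 to 0.61. The call of KLK15 with siRNA#1 was lost in 12 of 21 alternatives, at -0.67 to -0.31 over all 21 (adjusted p = 0.0238 to 0.123). The value of KLK4 with siRNA#1 turned negative, and never passed, with RLE size factors (-0.0059), DESeq2 (-0.0060), edgeR's own filter (-0.0034), without control replicate 1 (-0.0090) and without siRNA#1 replicate 2 (-0.032) or 3 (-0.058); with a library left out it ranged from -0.058 to 0.11. In the average, the number of members called higher was 0 with no filter on low values (KLK4 adjusted p = 0.0577) and 0 to 1 with a library left out. The count of all called genes stayed within 1.5 times in every alternative. Same-numbered libraries did not deviate together (correlations -0.069 to 0.039 over 9 pairs), so the numbers were not taken to pair them. With the replicate number as a block, 5007, 6070, 5838 and 4766 genes were called with siRNA#1, siRNA#2, their average and siRNA#1 against siRNA#2, and the call of KLK15 with siRNA#1 was lost (adjusted p = 0.0653). Fitting only the groups compared is the same fit for the average and was not repeated. The 6 kallikreins at 0 to 8 counts cannot be compared at this depth.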
